A study of Mus musculus with 27 samples.

Results

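Transcripts of 10 pluripotency genes were followed in whole mouse embryos at embryonic day 8.5 (E8.5), in wild-type (WT) embryos and in embryos without active DNMT3B. The genes were Pou5f1, Nanog and Klf4, the germ-line and early-embryo genes Dppa2, Dppa3, Dppa4 and Dppa5a, and the markers Zfp42, Utf1 and Lin28a. They were taken by name, each as the row of that symbol, and are 10 of the 24065 genes in the deposited RNA-Seq table. The study compared 3 WT with 3 Dnmt3b-/- littermates of strain C57BL/6J by RNA-Seq, to ask how methylation placed by DNMT3B influences transcription. The Dnmt3b-/- embryos came from matings of heterozygous mice whose catalytically inactive allele had been made by crossing Dnmt3b-2lox mice with a deleter line expressing Cre from the ACTB promoter. Every library held the RNA of 1 whole embryo, and the embryos were not pooled.

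Pluripotency is the ability of the inner cell mass and epiblast to form every cell type of the embryo. It is held by transcription factors such as OCT4, NANOG and SOX2, which bind their own and each other's control regions, and it is lost as the germ layers form, when many of these genes are silenced and gain DNA methylation. Primordial germ cells, a small population set aside at the base of the allantois, switch several of the same genes back on. DNMT3B is one of the enzymes that place new methyl groups on CG dinucleotides (CpGs) after implantation.

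The counts on genes summed to between 41489332 and 58470286 per embryo, with WT embryo 2 the lowest. At these depths a limit of 3 counts, which covers counting error only, equals 2.38 to 3.501 normalized counts, meaning counts scaled by the TMM method to libraries of equal depth. A gene was called when its adjusted p-value in the quasi-likelihood test of edgeR, corrected over all 15114 genes tested, lay below 0.05. Dnmt3b itself had 7287, 14003 and 6301 normalized counts in WT embryos 1, 2 and 3 and 4076, 4557 and 4756 in Dnmt3b-/- embryos 1, 2 and 3. Its counts in WT and Dnmt3b-/- embryos did not overlap, and the fit put it 2.06-fold lower (log2 fold change -1.04, SE 0.27, adjusted p = 0.0169 by edgeR). It was 1.52-fold lower without WT embryo 2 (adjusted p = 0.00260), while the call was kept in 3 of the 6 fits with 1 embryo dropped, up to an adjusted p of 0.0613, and lost with a correction for GC content and length (adjusted p = 0.0617). This total over the gene does not separate the deleted catalytic exons from the rest of the transcript. WT embryo 2 stood apart from WT embryos 1 and 3 in markers of several tissues. The summed level of 10 extraembryonic endoderm genes was 1171 FPKM in WT embryo 2, 390 and 181 FPKM in WT embryos 1 and 3, and 113 to 420 FPKM in the Dnmt3b-/- embryos, where FPKM is fragments scaled for exon length in kilobases and for the library total. The 7 primitive erythroid genes ran the other way, with 399 FPKM in WT embryo 2, 1521 and 2251 FPKM in WT embryos 1 and 3, and 504 to 1443 FPKM in Dnmt3b-/- embryos. The fold changes of the 10 genes are therefore given with and without WT embryo 2.

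All 10 genes passed the filter of a mean of 10 counts over the 6 embryos. Of the 10, 1 was called higher in Dnmt3b-/- embryos, which is Dppa4, against 17.6% of all tested genes. Of the 10, 1 was called lower, which is Klf4, against 18.1% of all tested genes. Dppa4 was also the only gene of the 10 with every Dnmt3b-/- embryo above every WT embryo, a pattern that 25.3% of tested genes showed. Klf4 was the only one with every Dnmt3b-/- embryo below every WT embryo, as 26.5% of tested genes were. Neither count of calls exceeded that background. The mean raw count of Dppa4 in WT embryos alone lay under the filter, so that it entered the test through the embryos in which it was higher. Without any filter it was still called (adjusted p = 0.0111 by edgeR).

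**Figure D1:**
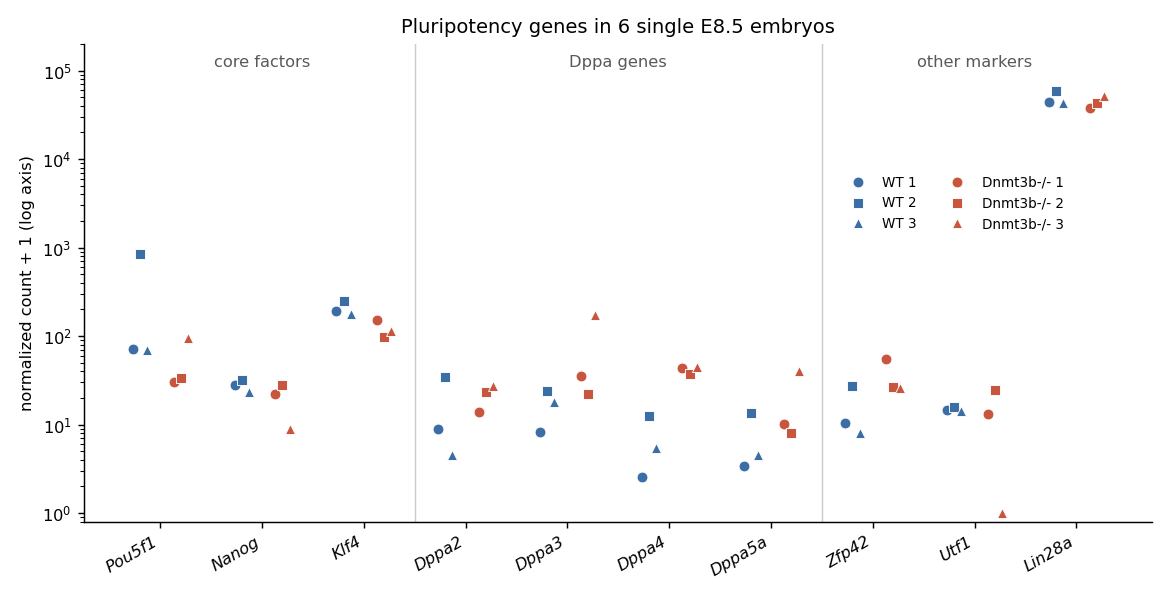
Normalized count plus 1 (log axis) of the 10 pluripotency genes (horizontal axis) in each of 3 WT embryos (blue) and 3 Dnmt3b-/- embryos (red), with 1 symbol shape per embryo number. The Dnmt3b-/- embryos lie above all WT embryos for Dppa4, at 43.1, 36.2 and 44.2 against 1.58, 11.48 and 4.42 normalized counts, and WT embryo 2 is far above the others for Pou5f1 at 839 normalized counts.

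Promoter sequences are shown for the 3 core factors and Zfp42, since CpGs are the bases that DNMT3B methylates. A RefSeq window was at hand for 6 of the 10 genes, namely Pou5f1, Nanog, Klf4, Zfp42, Utf1 and Lin28a. Each sequence below is the 250 bases before the first listed transcript start in build GRCm38.p6, written 5′ to 3′ on the strand of the gene in lower case, with every CpG in capitals.
Klf4, chr4:55532476-55532725, minus strand: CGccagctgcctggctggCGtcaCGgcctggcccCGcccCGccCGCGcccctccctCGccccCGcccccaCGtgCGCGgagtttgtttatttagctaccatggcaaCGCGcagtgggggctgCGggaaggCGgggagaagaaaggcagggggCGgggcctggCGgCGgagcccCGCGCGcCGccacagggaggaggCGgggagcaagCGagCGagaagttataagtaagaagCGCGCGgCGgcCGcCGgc
Pou5f1, chr17:35505782-35506031, plus strand: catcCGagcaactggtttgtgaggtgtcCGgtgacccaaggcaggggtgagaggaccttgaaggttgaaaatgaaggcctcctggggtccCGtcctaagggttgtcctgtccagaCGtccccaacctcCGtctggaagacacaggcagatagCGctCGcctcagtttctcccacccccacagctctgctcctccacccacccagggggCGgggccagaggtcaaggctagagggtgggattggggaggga
Nanog, chr6:122707239-122707488, plus strand: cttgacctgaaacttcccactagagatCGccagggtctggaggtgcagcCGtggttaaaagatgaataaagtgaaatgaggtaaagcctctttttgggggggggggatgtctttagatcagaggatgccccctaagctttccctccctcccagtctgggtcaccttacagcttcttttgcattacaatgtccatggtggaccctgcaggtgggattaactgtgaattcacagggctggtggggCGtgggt
Zfp42, chr8:43307010-43307259, minus strand: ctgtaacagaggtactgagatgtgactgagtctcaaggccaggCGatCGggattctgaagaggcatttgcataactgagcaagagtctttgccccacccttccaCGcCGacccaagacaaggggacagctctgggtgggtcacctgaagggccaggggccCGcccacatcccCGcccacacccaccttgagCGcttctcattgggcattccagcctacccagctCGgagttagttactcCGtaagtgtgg
The Klf4 window held 32 CpGs, more than 95.4% of the 32851 mouse promoter windows of this length, whose median was 6 CpGs. Pou5f1, Nanog and Zfp42 had 8, 3 and 9 CpGs in theirs. Utf1 had 14 CpGs and Lin28a had 7. The octamer core TTTGCAT, the sequence bound by OCT4 and other POU factors, was searched on both strands, where its other reading is ATGCAAA. It began 75 bases before the start of Nanog and 185 bases before that of Zfp42, and it was found in 4.10% of all windows. It was not among the letters of the other 4 windows. A match of letters describes the sequence and is not a measured site.

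The core factors are described first. Pou5f1 encodes OCT4, the POU-domain factor without which no pluripotent inner cell mass forms. Its gene lies at chr17:35506032-35510777 on the plus strand with 1443 bases of exon. Pou5f1 had 71.3, 839 and 69.0 normalized counts in WT embryos 1, 2 and 3 and 29.1, 32.7 and 94.1 in Dnmt3b-/- embryos 1, 2 and 3. WT embryo 2 was thus 11.96-fold above the mean of WT embryos 1 and 3, and Dnmt3b-/- embryo 3 exceeded both of those, so the genotypes overlapped. The fitted log2 fold change was -2.64 with a 95% confidence interval from -4.97 to -0.32, and the gene was not called (adjusted p = 0.0739 by edgeR). Without WT embryo 2 the change was -0.44 (adjusted p = 0.570 by edgeR). Without WT embryo 1 or without WT embryo 3, which leaves WT embryo 2 in a group of 2, the gene was called, with adjusted p-values of 0.0466 and 0.0368 by edgeR. With WT embryo 2 and Dnmt3b-/- embryo 3 both left out it was called at a smaller log2 fold change of -1.19 (adjusted p = 0.0333 by edgeR). The side of the threshold on which Pou5f1 fell was therefore set by which embryos entered. A set of 5 pseudogenes named after Pou5f1 is in the RefSeq annotation, and how reads shared with them were counted is not given in the sources used here.

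Nanog encodes the homeodomain factor that stabilizes the naive state, and lies at chr6:122707489-122714633 on the plus strand. Nanog was low throughout, with 26.9, 31.0 and 22.1 normalized counts in WT embryos and 21.0, 26.8 and 7.93 in Dnmt3b-/- embryos. The groups overlapped, and the log2 fold change of -0.51 had an interval from -1.73 to 0.71 (adjusted p = 0.487 by edgeR). Dnmt3b-/- embryo 3, the highest of its group for Pou5f1, was the lowest for Nanog, on 7 raw counts. Without that embryo the log2 fold change of Nanog was -0.14, and without WT embryo 2 it was -0.40 (adjusted p = 0.671 by edgeR).

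Klf4 encodes a zinc-finger factor of the naive network that is also used in epithelia and other tissues, and lies at chr4:55527137-55532475 on the minus strand. Klf4 had 189, 249 and 174 normalized counts in WT embryos and 151, 95.7 and 113 in Dnmt3b-/- embryos. Each Dnmt3b-/- embryo was below each WT embryo, and the fit put Klf4 1.69-fold lower (log2 fold change -0.76, SE 0.26, adjusted p = 0.0493 by edgeR). The call sat on the threshold. With each embryo dropped in turn it was kept once in 6 fits, whose adjusted p-values ran from 0.0321 to 0.150, and with a correction for GC content and length the adjusted p was 0.192. The log2 fold change was -0.59 without WT embryo 2 (adjusted p = 0.123 by edgeR). The direction was lower in all of these fits.

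The Dppa genes (developmental pluripotency associated) were named for expression that follows that of Pou5f1, but the 4 of them do not form a single protein family. Dppa2 and Dppa4 encode SAP-domain proteins that bind each other and act at CpG-rich promoters, and they are neighbours on chromosome 16, 16.0 kb apart with no gene of the table between them. Dppa4 lies at chr16:48283735-48294292 and Dppa2 at chr16:48310274-48319513, both on the plus strand. Dppa4 had 1.58, 11.48 and 4.42 normalized counts in WT embryos, from raw counts of 2, 10 and 5. WT embryo 1 thus lay under the limit of 3 counts. In Dnmt3b-/- embryos Dppa4 had 43.1, 36.2 and 44.2 normalized counts, from raw counts of 43, 31 and 39. The 3 Dnmt3b-/- embryos lay close together and all above WT embryo 2, the highest of the WT embryos. The fit put Dppa4 7.29-fold higher (log2 fold change 2.87, 95% confidence interval 1.35 to 4.38, adjusted p = 0.0110 by edgeR). It stayed called when each of the 6 embryos was dropped in turn, with adjusted p-values from 0.00451 to 0.0433 by edgeR. Without WT embryo 2 it was 13.4-fold higher, a size that rests on WT raw counts of 2 and 5. Even so its level in Dnmt3b-/- embryos was low, at a mean of 0.557 FPKM (SD 0.059, n = 3) against 0.0789 FPKM (SD 0.0690, n = 3) in WT embryos.

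Dppa2 was not called. It had 7.92, 33.3 and 3.54 normalized counts in WT embryos and 13.03, 22.2 and 26.1 in Dnmt3b-/- embryos. WT embryo 2 was the highest of all 6, and the log2 fold change of 0.49 had an interval from -1.33 to 2.30 (adjusted p = 0.666 by edgeR). Without WT embryo 2 the log2 fold change was 1.79, with an interval from 0.13 to 3.46 that overlaps the 2.16 to 5.33 of Dppa4 in the same fit, and an adjusted p of 0.0899 by edgeR. The difference in response between Dppa2 and Dppa4 was not tested. The next protein-coding gene beyond Dppa2 is Morc1, a gene of male germ cells at a distance of 112 kb. Morc1 had 3.96, 10.3 and 7.08 normalized counts in WT embryos and 32.1, 37.4 and 3.40 in Dnmt3b-/- embryos, and was not called (log2 fold change 1.78, adjusted p = 0.132 by edgeR).

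Dppa3, also called Stella, encodes a maternal protein that shields the egg's genome from loss of methylation and that marks primordial germ cells. It lies at chr6:122626424-122630271 on the plus strand, 77.2 kb from Nanog with no gene of the table between them. Dppa3 had 7.13, 23.0 and 16.8 normalized counts in WT embryos and 34.1, 21.0 and 172 in Dnmt3b-/- embryos. Dnmt3b-/- embryo 3 was 6.26-fold above the mean of the other 2, while Dnmt3b-/- embryo 2 lay below WT embryo 2, so the genotypes overlapped. The log2 fold change was 2.29 (95% confidence interval 0.37 to 4.21, adjusted p = 0.0637 by edgeR), and Dppa3 was not called. Without Dnmt3b-/- embryo 3 it was 0.86 (adjusted p = 0.315 by edgeR), and without WT embryo 2 it was 2.66 (adjusted p = 0.0612 by edgeR). DESeq2 called Dppa3 beside Dppa4 (adjusted p = 0.0137 by DESeq2), so that 2 of the 10 genes were higher by that test against 20.3% of all genes tested. The paper, which used DESeq2, reports modestly more transcript of several pluripotency genes with reduced promoter methylation, and singles out Dppa3 and Dppa4. A pseudogene, Dppa3-ps, bears the name of Dppa3 in the annotation.

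Dppa5a, also called Esg1, encodes a small KH-domain RNA-binding protein of pluripotent cells and oocytes, and lies at chr9:78367052-78368199 on the minus strand. It had 2.38, 12.6 and 3.54 normalized counts in WT embryos and 9.02, 7.0 and 39.7 in Dnmt3b-/- embryos. WT embryo 1 lay at the limit of 3 counts, and Dnmt3b-/- embryo 3 was again the highest, 4.95-fold above the mean of the other 2. The log2 fold change of 1.63 had an interval from -0.47 to 3.73 (adjusted p = 0.202 by edgeR). The fold rose from 3.10 to 6.08 without WT embryo 2, at an adjusted p of 0.0826 by edgeR, and the gene was still not called. Without Dnmt3b-/- embryo 3 the gene no longer passed the filter on counts and was not tested.

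Among the other markers, Zfp42 encodes REX1, a zinc-finger protein derived from YY1 and widely used to mark naive stem cells. Its gene lies at chr8:43295067-43307009 on the minus strand. Zfp42 had 9.51, 26.4 and 7.08 normalized counts in WT embryos and 54.1, 25.7 and 24.9 in Dnmt3b-/- embryos. WT embryo 2 lay just above the lower 2 Dnmt3b-/- embryos, which was the whole overlap between the groups. With all embryos the log2 fold change was 1.31 (95% confidence interval -0.13 to 2.75) and Zfp42 was not called (adjusted p = 0.139 by edgeR). Without WT embryo 2 it was 4.16-fold higher and was called (adjusted p = 0.0389 by edgeR). In that fit 2 of the 10 genes, Dppa4 and Zfp42, were called higher against 17.0% of all genes, and none was called lower by edgeR, also with 0 at an unadjusted p under 0.05, against 17.6% of all genes.

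Utf1 encodes a chromatin-bound protein of pluripotent and germ cells and lies at chr7:139943856-139945112 on the plus strand. Utf1 had 13.5, 14.9 and 13.3 normalized counts in WT embryos and 12.02, 23.3 and 0 in Dnmt3b-/- embryos. The count of 0 in Dnmt3b-/- embryo 3 allows up to 3.40 normalized counts. The log2 fold change of -0.24 had an interval from -2.36 to 1.89 (adjusted p = 0.865 by edgeR), and its sign turned without Dnmt3b-/- embryo 3. It was -0.18 without WT embryo 2 (adjusted p = 0.913 by edgeR).

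Lin28a encodes the RNA-binding protein that blocks maturation of let-7 microRNAs, and it stays on in embryonic tissues after pluripotency has ended. It lies at chr4:134003330-134019196 on the minus strand. Lin28a had 44575, 59598 and 42893 normalized counts in WT embryos and 37759, 43456 and 51545 in Dnmt3b-/- embryos. The groups overlapped, and the log2 fold change of -0.15 had the narrowest interval of the 10 genes, from -0.49 to 0.20 (adjusted p = 0.479 by edgeR). It was 0.02 without WT embryo 2 (adjusted p = 0.935 by edgeR).

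Levels were then compared between genes per length of exon. Lin28a was by far the most abundant of the 10, at 266, 356 and 256 FPKM in WT embryos 1, 2 and 3. Pou5f1 followed with 1.03, 12.1 and 0.993 FPKM, so that the mean of 4.70 FPKM described none of its 3 WT embryos. Klf4 ranged from 1.19 to 1.70 FPKM in WT embryos and Dppa3 from 0.181 to 0.583 FPKM. The remaining 6 genes had WT means from 0.249 FPKM for Utf1 down to 0.0789 FPKM for Dppa4, with Nanog, Dppa5a, Zfp42 and Dppa2 between them. In this order of WT means only the steps from Lin28a to Pou5f1 and from Klf4 to Dppa3 lay beyond the spread of the embryos, and all other neighbours overlapped. In Dnmt3b-/- embryos Dppa3 had the second highest mean, at 0.865, 0.533 and 4.37 FPKM, but this place rested on embryo 3, since Klf4 at 1.03, 0.653 and 0.773 FPKM was above it in embryos 1 and 2. Dppa4 ranged from 0.490 to 0.598 FPKM. In whole embryos, fewer cells that express a gene and less RNA per cell cannot be told apart.

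**Figure D2:**
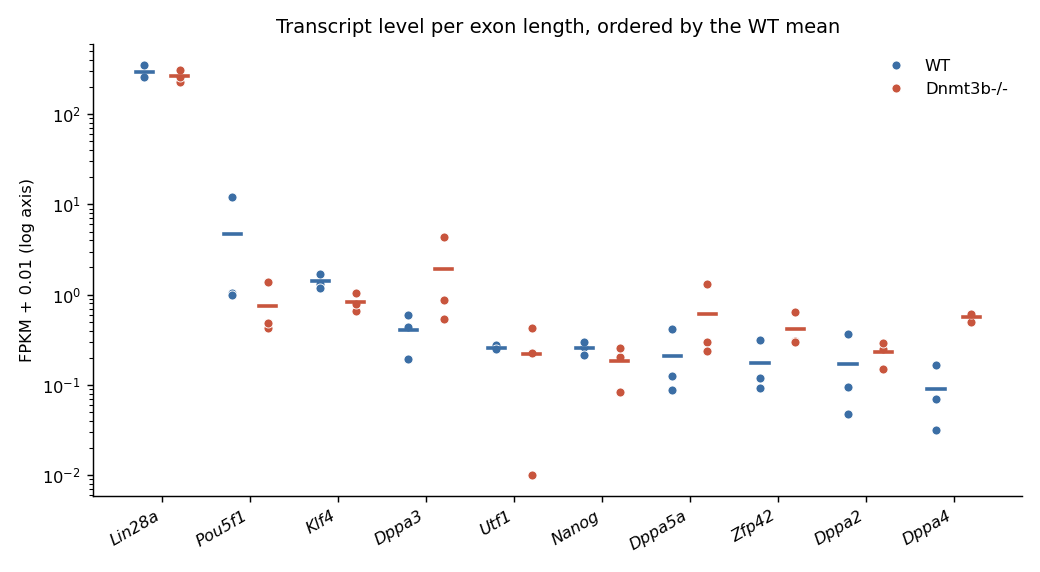
Level in FPKM plus 0.01 (log axis) of the 10 genes, ordered from left to right by their mean in WT embryos, with 1 point per embryo and a bar at the mean of the 3 WT (blue) and the 3 Dnmt3b-/- embryos (red). Lin28a lies between 225 and 356 FPKM in all embryos and every other gene at 12.1 FPKM or lower, and Utf1 is drawn at 0.01 in the Dnmt3b-/- embryo in which it had 0 counts.

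The Dppa genes and the core factors differed in the sign of their estimates. All 4 Dppa genes had a positive log2 fold change with a median of 1.96, and all 3 core factors a negative one with a median of -0.76, beside a median of -0.03 over all genes tested. Most of these 7 estimates did not pass the test, and the difference between the 2 sets was not tested. The sets were formed with results of these data known, so their signs are a description only. For Dppa4 and Dppa5a the mean raw count in WT embryos alone lay under the filter, so both entered through the Dnmt3b-/- embryos. Outside the 2 sets, Zfp42 was positive as well (log2 fold change 1.31), while Utf1 and Lin28a were negative (-0.24 and -0.15). Without WT embryo 2 the medians were 2.63 and -0.44, and without Dnmt3b-/- embryo 3, where Dppa5a was not tested, they were 0.86 and -0.71. The sizes of both medians thus depended on these embryos, while their signs stayed the same in these fits.

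WT embryo 2 was the highest WT embryo for 10 of the 10 genes by normalized count, where 35.9% of all tested genes had their highest WT value in it. For Utf1 and Nanog this rank lay within counting error, on raw counts of 17, 13 and 15 and of 34, 27 and 25 in WT embryos 1, 2 and 3. The 10 genes were chosen with results of these data known, so these counts are a description only. In 5 of the 10, namely Pou5f1, Dppa2, Dppa4, Dppa5a and Zfp42, WT embryo 2 was at least 2-fold above the mean of WT embryos 1 and 3. This held for 4.29% of all tested genes, a share not matched for abundance. Dppa2, Dppa4, Dppa5a and Zfp42 had 29 raw counts or fewer in each WT embryo, where counting error is large. The excess of WT embryo 2 ran from 1.12-fold for Utf1 to 11.96-fold for Pou5f1. Dnmt3b-/- embryo 3 was the highest of its group for 6 of the 10 genes, namely Pou5f1, Lin28a and all 4 Dppa genes, where 38.2% of tested genes had their highest Dnmt3b-/- value in it. It was 1.11-fold above the mean of the other 2 for Dppa4 and 6.26-fold above it for Dppa3. For Nanog, Utf1 and Zfp42 it was the lowest.

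Marker lists moved with these 2 embryos. Of 14 genes of the caudal epiblast and tailbud, a tissue in which Pou5f1 transcripts persist late, 12 were highest in WT embryo 2 among the WT embryos. Their summed level was 150, 231 and 130 FPKM in WT embryos 1, 2 and 3 and 126, 138 and 202 FPKM in Dnmt3b-/- embryos 1, 2 and 3, so that WT embryo 2 and Dnmt3b-/- embryo 3 were the highest of each group. The most abundant of them, T, had 2773, 4072 and 2380 normalized counts in WT embryos and 3481, 3959 and 5359 in Dnmt3b-/- embryos, and was not called with all embryos (adjusted p = 0.122 by edgeR) but was 1.66-fold higher and called without WT embryo 2 (adjusted p = 0.0114). None of the 14 was at 0 in all embryos, and 3 were called with all embryos, all lower beside 18.1% of all genes, with Wnt3a and Evx1 more than 2-fold lower (log2 fold changes -1.04 and -1.26, adjusted p = 0.00907 and 0.0123 by edgeR). With the correction for GC content and length none of the 14 was called lower and Fgf17 was called higher. That fit called 1624 of all 15058 genes lower and 1876 higher. Wnt3a and Evx1 were 1.51-fold lower in it (adjusted p = 0.0873 and 0.236 by edgeR). Without WT embryo 2 these 2 were 1.79-fold and 1.98-fold lower and called. All 10 extraembryonic endoderm genes, led by Apoa1 and Ttr, were highest in WT embryo 2 among WT embryos, and only Amn was called, lower in Dnmt3b-/- embryos (log2 fold change -2.59, adjusted p = 0.0429 by edgeR) and not without WT embryo 2 (adjusted p = 0.127). The 11 genes of chorion and trophoblast had summed levels of 8.11 to 12.3 FPKM in WT and 10.4 to 13.9 FPKM in Dnmt3b-/- embryos. Of these, the placental markers Prl3d1, Prl2c2 and Tpbpa were at 0 in every embryo. Of the 7 that were tested, none was called with all embryos. Hand1 was called higher without WT embryo 2 (adjusted p = 0.0373 by edgeR) and with the GC and length correction (adjusted p = 0.0311). The decidual marker Prl8a2 was at 0 in every embryo as well. The 5 decidua genes had summed levels of 14.56 to 26.95 FPKM in WT and 13.7 to 29.0 FPKM in Dnmt3b-/- embryos, and none of the 4 tested was called. None of the 7 primitive erythroid genes, led by Hbb-bh1 and Hbb-y, was called with all embryos, and without WT embryo 2 Hbb-bh1 was 2.34-fold lower and called (adjusted p = 0.0307 by edgeR). The 12 genes of other tissues of the E8.5 embryo, led by the cardiac genes Myl7 and Tnnt2, were all present, with 5 called higher and 2 lower, beside 17.6% and 18.1% of all genes, and the somite factor Tcf15 more than 2-fold higher (log2 fold change 1.14, adjusted p = 0.00601 by edgeR). The part of these tissues in the levels of the 10 genes was not tested.

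**Figure D3:**
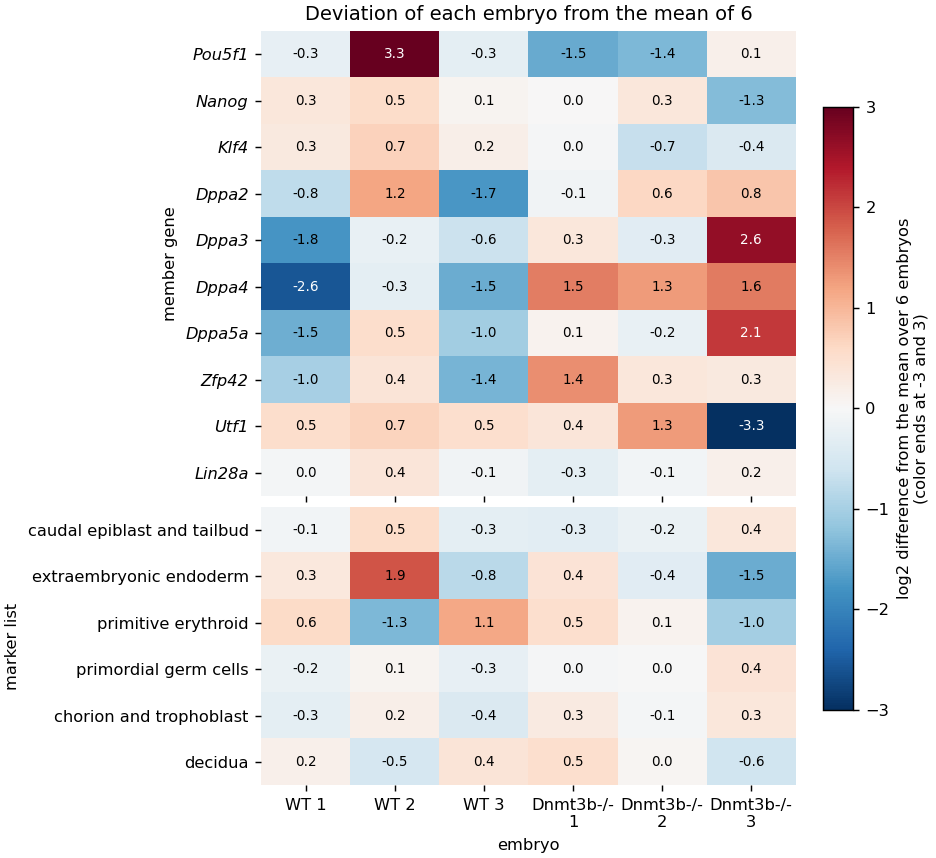
Log2 difference of each embryo (columns) from the mean over the 6 embryos, for the normalized count plus 1 of the 10 genes (upper block) and for the summed FPKM of 6 marker lists (lower block), in red where higher and blue where lower. WT embryo 2 is red for Pou5f1 and for extraembryonic endoderm, where it held 839 normalized counts and 1171 FPKM, and Dnmt3b-/- embryo 3 is red for Dppa3 and Dppa5a and blue for Utf1, where it held 172, 39.7 and 0 normalized counts.

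Primordial germ cells express several of the 10 genes, so their markers were read beside them. The 11 markers summed to 103 to 131 FPKM in WT and 119 to 163 FPKM in Dnmt3b-/- embryos, mostly from Ifitm1 and Alpl, which other tissues share and which were not called (log2 fold changes 0.09 and -0.24, adjusted p = 0.709 and 0.0927 by edgeR). Of the 9 markers tested, 3 were called, all higher, beside 17.6% of all genes. Dazl, an RNA-binding protein of germ cells, had 15.1, 12.6 and 4.42 normalized counts in WT embryos and 325, 94.5 and 282 in Dnmt3b-/- embryos (log2 fold change 4.44, adjusted p = 0.00134 by edgeR). Ddx4, the germ-cell RNA helicase VASA, had 42.8, 161 and 104 normalized counts in WT embryos and 907, 857 and 1005 in Dnmt3b-/- embryos (log2 fold change 3.19, adjusted p = 0.00104 by edgeR). The third was Ifitm3, with a log2 fold change of 0.96. These 3 were also called without WT embryo 2. Prdm1 and Tfap2c, factors that specify germ cells, were not called (log2 fold changes -0.17 and 0.22, adjusted p = 0.484 and 0.493 by edgeR), nor were Kit and Dnd1. Nanos3 and Prdm14, which define the early germ cells, had at most 11.9 and 13.6 normalized counts in any embryo and did not pass the filter. The paper names Ddx4 among germline genes with a methylated CpG-rich promoter, and reports that many germline transcripts are switched on ectopically in Dnmt3b-/- embryos. In whole embryos, more germ cells and ectopic transcripts of Dazl and Ddx4 in other cells cannot be told apart. The part of germ cells in the change of Dppa4 was not tested.

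The genes whose counts across the 6 embryos were most like those of a member were listed for Pou5f1, Dppa3 and Dppa4. Likeness was Pearson's r of log2(normalized count + 1), a description over 6 embryos that differ in genotype and depth. For Pou5f1 they were Gfra3, Gsr, Tbl2, Epha1 and Ptprt, with r from 0.996 to 0.990. Gfra3, a receptor of the GDNF family, had 128, 409 and 134 normalized counts in WT embryos and 98.2, 96.9 and 163 in Dnmt3b-/- embryos, so it too was highest in WT embryo 2. For Dppa3 they were Gm527, Zfp953, Mapkap1, Socs4 and Ptpn4, with r from 0.994 to 0.984, all of them highest in Dnmt3b-/- embryo 3. For Dppa4 they were Osbpl9, Zfp655, Ddx4, Xlr4a and Spock3, with r from 0.993 to 0.990. An r above 0.95 was reached by 179 genes for Dppa4, 40 for Pou5f1 and 41 for Dppa3. The size of a change does not enter r. Osbpl9 had 3390, 3887 and 3547 normalized counts in WT embryos and 4514, 4288 and 4488 in Dnmt3b-/- embryos. Xlr4a, a gene of the X-linked Xlr family, had 36.4, 119 and 48.7 normalized counts in WT embryos and 511, 348 and 473 in Dnmt3b-/- embryos. Ddx4 and Xlr4a shared with Dppa4 low counts in WT embryos 1 and 3, a higher count in WT embryo 2 and all Dnmt3b-/- embryos above it.

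The nearest protein-coding genes on either side of the 10 were examined as well. Of 16 such neighbours that are not themselves among the 10, 12 were tested, 2 were called higher and 3 lower, beside 17.6% and 18.1% of all genes. The higher ones were Rad23b, 135 kb from Klf4 (log2 fold change 0.47, adjusted p = 0.00573 by edgeR), and Pvrl3, as far as 1790 kb from Dppa4 (log2 fold change 0.33, adjusted p = 0.0104 by edgeR). The lower ones were Tcf19, Slc2a3 and Aim1l, the last 41.5 kb from Lin28a (log2 fold change -1.25, adjusted p = 0.0239 by edgeR). The nearer end of Tcf19 lies 1.95 kb beyond Pou5f1. Tcf19 had 555, 586 and 626 normalized counts in WT embryos and 348, 286 and 335 in Dnmt3b-/- embryos. It was called lower (log2 fold change -0.87, SE 0.14, adjusted p = 0.00256 by edgeR) and did not share the high value of Pou5f1 in WT embryo 2. Slc2a3, the glucose transporter gene 13.2 kb beyond Nanog, had 55396, 113743 and 53388 normalized counts in WT embryos and 35338, 33867 and 34210 in Dnmt3b-/- embryos, and was called lower (log2 fold change -1.11, adjusted p = 0.0128 by edgeR). Gdf3, 16.3 kb from Dppa3, had 21.4, 14.9 and 21.2 normalized counts in WT embryos and 14.0, 11.7 and 14.7 in Dnmt3b-/- embryos, and Ooep, 8.70 kb from Dppa5a, had 15.1, 28.7 and 15.04 and 11.02, 9.34 and 32.9. Neither was called (adjusted p = 0.430 and 0.891 by edgeR).

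The wider network was read from 41 further genes in 3 lists. Of the 38 that were tested, 6 were called higher and 7 lower, shares near the 17.6% and 18.1% of all genes. In the naive network, 17 of 20 genes were tested, with 1 called higher and 2 lower and a median log2 fold change of -0.35. Its most abundant members were Sall4 and Sox2. Sall4, a zinc-finger factor that keeps Pou5f1 on, had 10907, 14710 and 10088 normalized counts in WT embryos and 8960, 8770 and 10242 in Dnmt3b-/- embryos (log2 fold change -0.35, adjusted p = 0.0831 by edgeR). Sox2, the partner of OCT4 and by this stage a gene of the neural tube, had 4178, 3863 and 3874 normalized counts in WT embryos and 2520, 2842 and 3161 in Dnmt3b-/- embryos, and was called lower (log2 fold change -0.48, SE 0.09, adjusted p = 0.00496 by edgeR) with and without WT embryo 2. With the GC and length correction it was not called (adjusted p = 0.0547 by edgeR), and no gene of the naive network was. That fit called 1876 of all 15058 genes higher and 1624 lower. Sox2 also counts among the tissue genes above. Tdh, a threonine dehydrogenase of mouse stem cells, had 753, 2256 and 335 normalized counts in WT embryos and 457, 221 and 203 in Dnmt3b-/- embryos. It was called lower (log2 fold change -1.92, adjusted p = 0.0462 by edgeR), and without WT embryo 2 it was not (adjusted p = 0.124).

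In the formative network, which covers the epiblast after implantation, all 11 genes were tested. Of these, 2 were called higher and 3 lower, beside 17.6% and 18.1% of all genes. With the GC and length correction 2 were called higher and 0 lower, beside 1876 and 1624 of all 15058 genes. Zic2, a zinc-finger factor of the epiblast and neural plate, had 2622, 2850 and 2067 normalized counts in WT embryos and 3910, 5151 and 6458 in Dnmt3b-/- embryos (log2 fold change 1.04, adjusted p = 0.00365 by edgeR). Sall2 and Sox4 were its most abundant members, at log2 fold changes of -0.31 and -0.22 (adjusted p = 0.0173 and 0.153 by edgeR), and with the GC and length correction Sall2 was not called (adjusted p = 0.993). Of 10 genes of the LIN28 axis, which act on let-7 or on mRNAs, 3 were called higher and 2 lower, beside 17.6% and 18.1% of all genes. None of them changed by more than 2-fold, and Lin28a was not called. With the GC and length correction 1 of the 10 was called higher and 1 lower, beside 1876 and 1624 of all 15058 genes. Igf2bp3 and Igf2bp1, mRNA-binding proteins, were the most abundant of the 10, with log2 fold changes of 0.20 and -0.67 without that correction (adjusted p = 0.0614 and 0.00114 by edgeR). Without WT embryo 2, 9 of the 38 network genes were called higher and 7 lower, beside 17.0% and 17.6% of all genes.

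Genes of the 2-cell embryo, some of which need DPPA2 and DPPA4, and genes of the oocyte, where Dppa3 and Dppa5a are abundant, were counted in the same way. Of 22 genes of the 2-cell stage, 20 were in the table and 12 of these were at 0 in all 6 embryos. Only Usp17la and Sp110 passed the filter, and neither was called (adjusted p = 0.147 and 0.969 by edgeR). The oocyte list had 4 of 19 genes tested, led by Tle6 and Ooep, and none was called. The adjusted p-values of the leading pair were 0.238 and 0.891 by edgeR. With 3 embryos per genotype, an exact permutation test of any single gene cannot give a p-value under 0.1, so that no gene was tested that way. Across the 5 lists without a call by edgeR in the fit of all embryos (trophoblast, decidua, erythroid, 2-cell and oocyte genes), 1 gene of the trophoblast list and 0 of the others had an unadjusted p under 0.05, and DESeq2 called 0 in each.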

How the data were processed

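RNA-Seq libraries from 3 WT and 3 Dnmt3b-/- E8.5 embryos were depleted of ribosomal RNA, prepared with a stranded kit and sequenced as pairs of 75 bases. The authors aligned reads to mm10 with TopHat2 2.0.12 and deposited raw counts per gene from HTSeq 0.6.0 in RefSeq exons. The RefSeq release, the strand setting and the handling of multiply mapped reads are not given in the sources used here. The authors also deposited a signal, the count divided by a DESeq2 1.4.5 size factor, and the log2 fold change and adjusted p-value of their own comparison. Those columns were not used. Methylation libraries were not analysed here.

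Raw counts were normalized by TMM and compared by edgeR (version 4.0.16, R 4.3.3; quasi-likelihood F test) for genes averaging 10 counts or more, with Benjamini-Hochberg adjustment over all 15114 genes. The SE is the log2 fold change divided by the square root of F. FPKM used RefSeq exon lengths of GRCm38.p6, matched for 99.3% of genes. Promoter windows are from RefSeq. The scripts were tested on simulated data.

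The 10 genes, the lists and the tests were chosen with earlier results of these data known. Named genes are the 10, Dnmt3b, in each list the called genes past 2-fold and the 2 most abundant in WT, defining markers at 0 and the 5 genes most like Pou5f1, Dppa3 and Dppa4. The neighbours of the 10, Nanos3, Prdm14, Ifitm3, Prdm1, Tfap2c, Kit, Dnd1, Fgf17 and Hand1 were added after their values were seen. Alternatives were no filter, an average of 50 counts or more, DESeq2 size factors, total counts, DESeq2 1.42.0, limma 3.58.1 with a prior count of 1, a replicate block, a spline correction for GC content and length with 5 degrees of freedom each, and leaving out embryos. The replicates were single embryos.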

Additional observations from a re-analysis of the deposited data

How the results depend on the processing

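Over 16 alternatives, Dppa4 was called higher in each one that tested it and was not tested at a mean of at least 50 counts. That filter left 3 of the 10 genes, with 0 called higher by edgeR, 0 at an unadjusted p under 0.05 and a median of -1.70 for the 2 core factors tested. The count of higher calls was 2 by DESeq2 (Dppa3 and Dppa4), without WT embryo 2 or without both WT embryo 2 and Dnmt3b-/- embryo 3 (Dppa4 and Zfp42), and 2 without Dnmt3b-/- embryo 2 (Dppa3 and Dppa4). Leaving out 1 embryo gave 1 to 2 higher and 0 to 1 lower calls. The call of Klf4 was lost (0 lower) with no filter (adjusted p = 0.0519 by edgeR), DESeq2 size factors (0.0520), the replicate block (0.0975), the GC and length correction (0.192) and both together (0.298). Under the replicate block no other call among the 10 changed. Deviations of same-numbered embryos from the mean of their genotype correlated at -0.05, -0.15 and -0.01 across genes. Embryos with unlike numbers gave -0.08 to 0.14. The replicate numbers thus showed no pairing, but deviations from means of 3 embryos cannot exclude one. DESeq2 gave Pou5f1 no adjusted p.

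Of the 38 further network genes, 3 were higher and 1 lower with the GC and length correction. Of all 15058 genes in that fit, 1876 were higher and 1624 lower. The counts of network genes were the same with the block added. The replicate block gave 4 lower, and leaving out 1 embryo gave 5 to 9 higher and 3 to 9 lower. The sign of Utf1 turned with the GC and length correction (log2 fold change 0.44), without Dnmt3b-/- embryo 3 (0.35; leave-one-out range -1.15 to 0.35) and without both embryos named above (0.39), and that of Lin28a without WT embryo 2 (0.017; range -0.258 to 0.017), none of them called. Across leave-one-out fits the Dppa median ran from 0.86 to 2.63 and the core median from -0.95 to -0.44. The causes were not tested. Scaling by total counts moved the median of all genes from -0.03 to -0.11. Depth limits the Dppa genes, Zfp42, Nanog and Utf1 most, with 0 to 152 raw counts per embryo.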
